A study of Prunus dulcis with 36 samples.

Results

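The abscisic acid receptor unigenes described here are 3 unigenes of the almond fruit transcriptome, TRINITY_DN23029_c0_g1, TRINITY_DN24477_c0_g1 and TRINITY_DN22391_c0_g1, out of 8676 unigenes listed in the deposited data. They were chosen because the paper names them as receptors of the PYR/PYL family, and it does so in connection with 12 days after flowering (DAF), so their difference at that stage is a description and not independent evidence. All 3 are listed with a value in every group. DN24477_c0_g1 (identifiers are shortened from here on) is named PYR1 and DN22391_c0_g1 is named PYL8. DN23029_c0_g1 carries different names within the study, PYL4 in the text and PYR1 in the annotation and the list of primers. Its annotation gives the Arabidopsis receptor PYR1 as the closest Swiss-Prot entry, a peach protein as the closest protein of all, and domains of the polyketide cyclase and Bet v I families, to whose fold these receptors belong. The unigenes are therefore called by their identifiers below.

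Fruits of the almond (Prunus dulcis) cultivar 'ZhiPi' were sampled at 12, 17, 22, 27, 32 and 37 DAF, normal and abnormal ones at each stage, in 12 groups of 3 replicates and 36 samples in all. Abnormal fruits were atrophied fruits in growth arrest, likely to be shed, which were picked from the same branches as the normal ones. The fruits of a replicate were cut up and mixed, so that all tissues of the fruit were pooled. The deposited value is 1 mean per group, which the authors took over its replicates, of normalized FPKM, a read count scaled by transcript length and library size. It allows no spread between replicates, no test and no P-value for any difference below, and the number of reads behind a value is unknown.

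Abscisic acid is a plant hormone known for its roles in seed maturation, water stress and the growth and shedding of organs. Its receptors of the PYR/PYL family are small soluble proteins with a pocket for the hormone. Once bound, they hold back the protein phosphatases 2C of clade A, which act as co-receptors, and this frees kinases of the SnRK2 family to activate transcription factors that bind the ABRE element of responsive promoters. In Arabidopsis, PYR1 forms dimers without the hormone and PYL8 is a monomer known for its role in roots.

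The forward primer with which the study amplified DN23029_c0_g1 is shown because no longer sequence of this unigene was at hand. DN23029_c0_g1 is the unigene with the largest difference between fruit types below. Whether the primer also matches other unigenes was not tested. The primer is 20 bases long and is written from 5′ to 3′ in lower case throughout, since no part of it was singled out.
DN23029_c0_g1 forward primer: tccttgccctttggttggtc

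Of the 12 groups, 4 stood apart in a way that the labels do not give. The parts of the annotation used here cover 753 of the listed unigenes, and for 146 of them the closest protein is one of Arabidopsis thaliana. These 146 unigenes were listed at 0 in 8 of the 12 groups. Of them, 104 were above 0 in normal fruits at 12 DAF, 113 in normal fruits at 17 DAF, 125 in abnormal fruits at 12 DAF and 85 in abnormal fruits at 22 DAF, and 0 in abnormal fruits at 17 DAF. Their FPKM made up between 0.0607% and 0.209% of the total in these 4 groups. For comparison, 278 to 328 of the 427 unigenes closest to a peach or Prunus mume protein were above 0 in each of the 12 groups. Across all listed unigenes, the Pearson r of log2(FPKM + 1) between the abnormal group labelled 22 DAF and normal fruits was highest at 17 DAF, with 0.891, and for the abnormal group labelled 17 DAF it was highest at 32 DAF, with 0.835. Whether the 2 abnormal groups were exchanged was not tested. Differences between fruit types at 17 and 22 DAF are given as labelled and also with these groups exchanged.

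**Figure D1:**
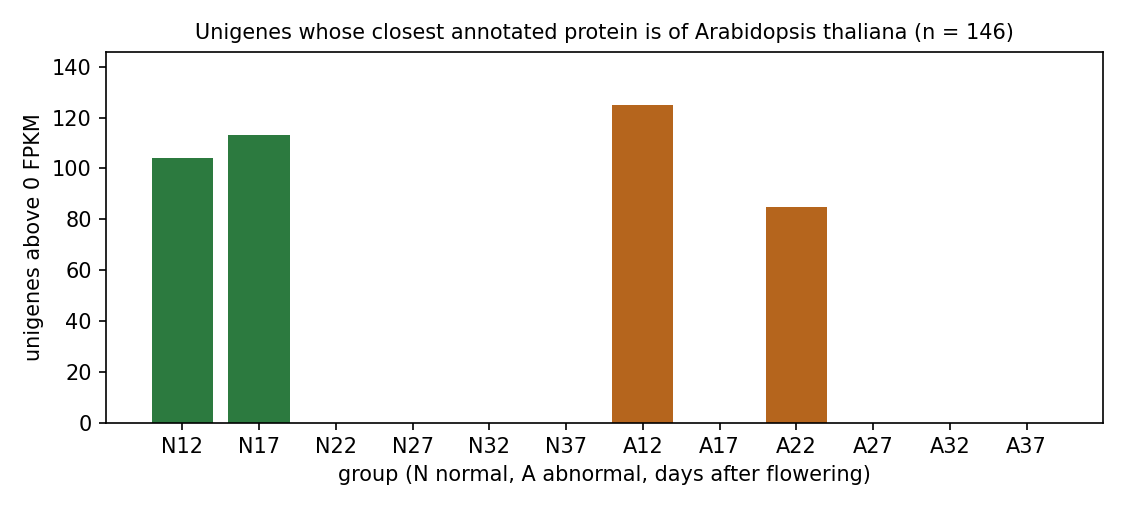
Number of the 146 unigenes closest to an Arabidopsis thaliana protein that were above 0 FPKM in each group (bars, green for normal and brown for abnormal fruits). Bars stand at 104 and 113 in normal fruits at 12 and 17 DAF and at 125 and 85 in abnormal fruits at 12 and 22 DAF, and the other 8 groups are at 0.

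The 3 receptors differed in level in the same order in nearly every group. DN24477_c0_g1 had the highest level in all 12 groups, from 116 to 698 FPKM with a median of 407 FPKM, and it ranked between 72 and 351 among the 8676 listed unigenes of a group. DN23029_c0_g1 was second in 11 groups, from 40.0 to 129 FPKM with a median of 57.5 FPKM. DN22391_c0_g1 was the lowest in 11 groups, from 15.4 to 59.5 FPKM with a median of 37.6 FPKM. The exception was abnormal fruits at 27 DAF, where DN22391_c0_g1 had 59.5 FPKM and DN23029_c0_g1 had 52.7 FPKM. Which neighbours in this order differ beyond the spread of replicates is not known from group means. FPKM is scaled by transcript length, so these levels can be set side by side.

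At 12 DAF, DN23029_c0_g1 and DN24477_c0_g1 were higher in abnormal than in normal fruits, while DN22391_c0_g1 was nearly level. DN23029_c0_g1 stood at 40.0 FPKM in normal fruits against 129 FPKM in abnormal ones, 3.23 times the normal level (log2 difference 1.67). DN24477_c0_g1 stood at 116 against 276 FPKM, 2.37 times the normal level (1.24). DN22391_c0_g1 stood at 18.5 against 19.7 FPKM (0.09). A difference is the value of log2(FPKM + 1) in abnormal minus that in normal fruits, and it was counted when above 1 in size. By this measure 2 of the 3 receptors were counted, both as higher, where 30.6% of the listed unigenes were counted, 13.8% as higher and 16.9% as lower. Of the 2309 unigenes that averaged 10 FPKM or more, a background set after the data had been seen, 39.0% were counted, 19.7% as higher and 19.3% as lower. The median difference of the receptors was 1.24, and that of all listed unigenes was 0. In mixed fruit tissue, more cells of a type that carries a transcript and more of the transcript per cell cannot be told apart.

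At 17 DAF, all 3 receptors had higher values in abnormal fruits, but none passed the threshold in the values as deposited. DN22391_c0_g1 stood at 15.4 FPKM in normal fruits against 30.0 FPKM in abnormal ones, 1.95 times the normal level (0.92). DN24477_c0_g1 stood at 188 against 320 FPKM (0.76), and DN23029_c0_g1 at 48.8 against 54.8 FPKM (0.17). So 0 of 3 receptors were counted at a stage where 41.5% of the listed unigenes were. Among unigenes that averaged 10 FPKM or more, 62.5% were counted. DN22391_c0_g1 crossed the threshold with median-of-ratios scaling, which gave 1.11. With the abnormal groups of 17 and 22 DAF exchanged, DN24477_c0_g1 and DN22391_c0_g1 both stood at 0.53 and DN23029_c0_g1 at 0.20, and 19.0% of all listed unigenes were counted.

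At 22 DAF, DN24477_c0_g1 and DN22391_c0_g1 had lower values in abnormal fruits. DN24477_c0_g1 stood at 454 FPKM in normal fruits against 273 FPKM in abnormal ones (log2 difference −0.73), and DN22391_c0_g1 at 38.1 against 22.6 FPKM (−0.73). DN23029_c0_g1 was nearly level, with 58.8 against 56.1 FPKM (−0.06), and its sign changed with scaling. None of the 3 was counted, where 21.7% of the listed unigenes were, and 11.5% of those that averaged 10 FPKM or more. With the 2 abnormal groups exchanged, the differences were −0.51 for DN24477_c0_g1, −0.33 for DN22391_c0_g1 and −0.10 for DN23029_c0_g1, beside 38.4% counted of all. The higher values of DN24477_c0_g1 and DN22391_c0_g1 in abnormal fruits at 17 DAF and their lower ones at 22 DAF thus kept their direction in either arrangement, with smaller sizes after the exchange.

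From 27 DAF on, no receptor differed by more than 0.44 in size between the fruit types. At 27 DAF, DN24477_c0_g1 stood at 698 FPKM in normal fruits against 550 FPKM in abnormal ones (−0.34), DN23029_c0_g1 at 68.0 against 52.7 FPKM (−0.36) and DN22391_c0_g1 at 56.7 against 59.5 FPKM (0.07). At 32 DAF, all 3 had lower values in abnormal fruits. The differences were −0.43 for DN23029_c0_g1 (100 against 74.3 FPKM), −0.28 for DN24477_c0_g1 (485 against 400 FPKM) and −0.25 for DN22391_c0_g1 (44.3 against 37.1 FPKM). At 37 DAF, all 3 had higher values in abnormal fruits and by nearly the same ratio. DN23029_c0_g1 stood at 55.5 against 75.7 FPKM (1.37 times), DN24477_c0_g1 at 414 against 552 FPKM (1.33 times) and DN22391_c0_g1 at 38.1 against 50.6 FPKM (1.33 times). At these 3 stages 0 of 3 receptors were counted, beside 20.8% of the listed unigenes at 27 DAF, 15.9% at 32 DAF and 14.5% at 37 DAF. Of the unigenes that averaged 10 FPKM or more, 14.8%, 8.79% and 5.72% were counted at these stages.

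**Figure D2:**
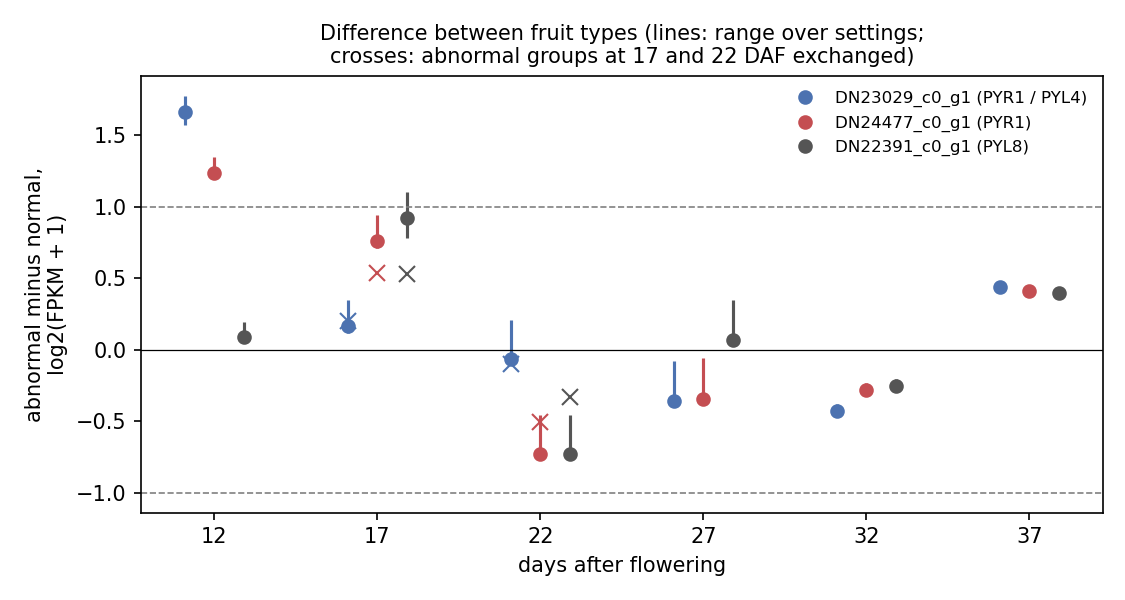
Difference between abnormal and normal fruits in log2(FPKM + 1) (vertical axis) by days after flowering (horizontal axis) for the 3 receptors. Points are the values as deposited, vertical lines the range over pseudocounts, scalings and a filter, crosses the values with the abnormal groups at 17 and 22 DAF exchanged and dashed lines the threshold of 1. Only DN23029_c0_g1 (1.67) and DN24477_c0_g1 (1.24) at 12 DAF lie past the threshold as deposited.

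Scaling bears on the small differences above. Median-of-ratios scaling moved every difference by 0.18 at 17 DAF, 0.28 at 22 DAF and 0.29 at 27 DAF toward higher values in abnormal fruits, and by less than 0.1 at the other stages. Scaling to the same total moved them the same way at 12, 22 and 27 DAF (by 0.11, 0.10 and 0.19), and by 0.05 or less in either direction elsewhere. The 12 DAF differences of DN23029_c0_g1 ranged from 1.57 to 1.78 over the pseudocounts, scalings and filter, and those of DN24477_c0_g1 from 1.21 to 1.35. The difference of DN22391_c0_g1 at 12 DAF ranged from 0.07 to 0.19.

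In normal fruits, DN24477_c0_g1 was lowest at the first stage and highest at 27 DAF. In the order of the 6 stages it had 116, 188, 454, 698, 485 and 414 FPKM, a 6.0-fold range. In abnormal fruits it started higher and ranged less, 2.02-fold, with 276, 320, 273, 550, 400 and 552 FPKM. Both fruit types had a local high at 27 DAF, and only abnormal fruits had a value at 37 DAF above that at 32 DAF.

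DN22391_c0_g1 had a course of nearly the same shape at a lower level. In the order of the stages it had 18.5, 15.4, 38.1, 56.7, 44.3 and 38.1 FPKM in normal fruits. In abnormal fruits it had 19.7, 30.0, 22.6, 59.5, 37.1 and 50.6 FPKM. The range was 3.69-fold in normal and 3.02-fold in abnormal fruits, with the highest value at 27 DAF in both. The ratio of DN24477_c0_g1 to DN22391_c0_g1 at 12 DAF was 6.28 in normal fruits and 14.0 in abnormal ones, and it lay between 9.26 and 12.3 in the other 10 groups.

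DN23029_c0_g1 followed another course. In normal fruits it had 40.0, 48.8, 58.8, 68.0, 100 and 55.5 FPKM in the order of the stages, with each value up to 32 DAF above the one before. In abnormal fruits its highest value came first, and it had 129, 54.8, 56.1, 52.7, 74.3 and 75.7 FPKM. The range was similar in both fruit types, 2.51-fold in normal and 2.45-fold in abnormal fruits, but the stage of the highest value was 32 DAF in normal and 12 DAF in abnormal fruits.

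**Figure D3:**
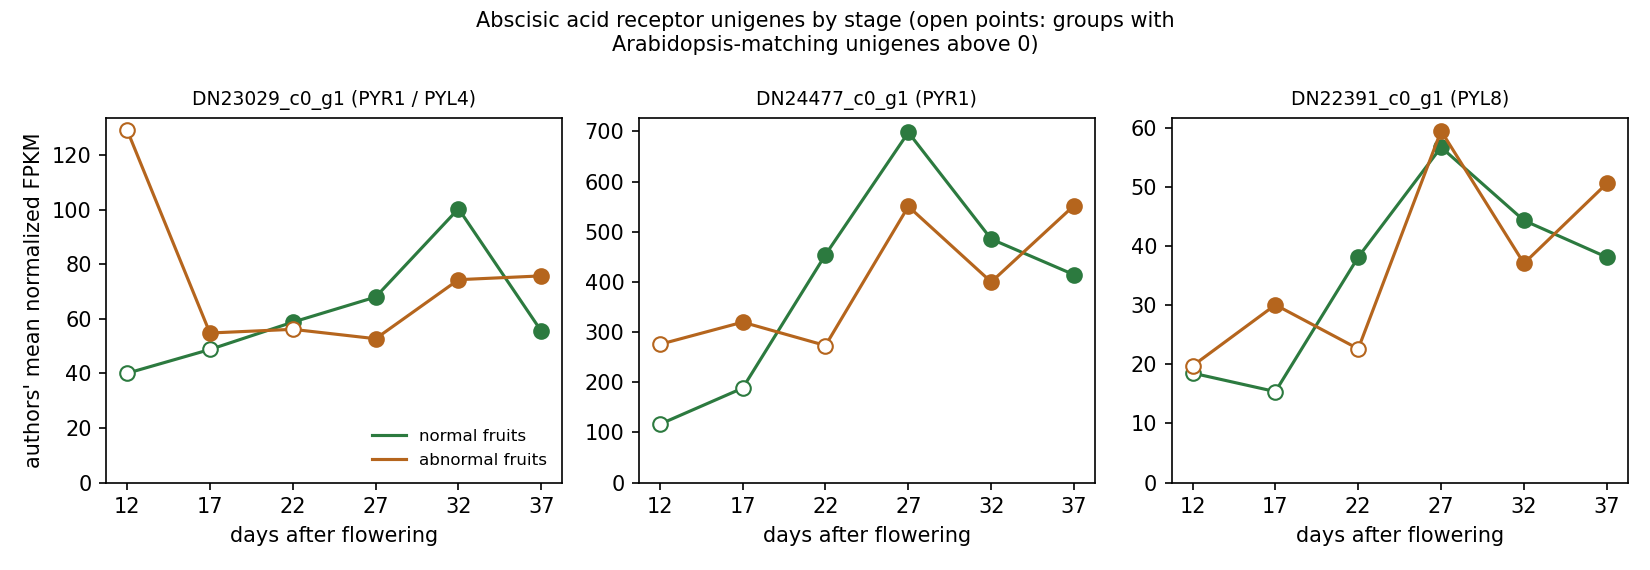
Authors' mean normalized FPKM (vertical axes, each from 0) by days after flowering for the 3 receptors in normal (green) and abnormal (brown) fruits, with open points for the 4 groups in which unigenes closest to Arabidopsis thaliana proteins were above 0. DN24477_c0_g1 and DN22391_c0_g1 peak at 27 DAF in normal fruits, and DN23029_c0_g1 is highest at 12 DAF in abnormal fruits.

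Between neighbouring stages, DN24477_c0_g1 and DN22391_c0_g1 passed the threshold upward in normal fruits from 17 to 22 DAF, with differences of 1.27 and 1.26, where 21.9% of the listed unigenes were higher by more than 1. In abnormal fruits they did so from 22 to 27 DAF, with 1.01 and 1.36, where 23.2% of the listed unigenes were higher. The step into the higher levels thus came 1 sampling later in abnormal fruits as labelled. The value of 1.01 lies just past the threshold. With the abnormal groups exchanged, neither unigene was counted from 22 to 27 DAF (0.78 and 0.96), where 30.8% of all were counted in either direction, and with median-of-ratios scaling neither was counted in either fruit type at these steps. DN23029_c0_g1 passed the threshold only from 12 to 17 DAF in abnormal fruits, with a lower value at 17 DAF (−1.22), where 22.2% of the listed unigenes were lower. With the groups exchanged this step was −1.19, where 12.5% were lower. No other step was counted for any of the 3 as deposited. Over the remaining 4 steps in normal fruits (starting at 12, 22, 27 and 32 DAF) 18.5%, 27.4%, 26.4% and 23.7% of the listed unigenes were counted. Over the remaining 3 in abnormal fruits (starting at 17, 27 and 32 DAF) 32.4%, 23.8% and 26.2% were.

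The low levels of DN24477_c0_g1 and DN22391_c0_g1 coincided with the 4 groups described above. DN24477_c0_g1 lay between 116 and 276 FPKM in the 4 groups with unigenes closest to Arabidopsis thaliana above 0, and between 320 and 698 FPKM in the other 8, without overlap. DN22391_c0_g1 lay between 15.4 and 22.6 FPKM in these 4 groups and between 30.0 and 59.5 FPKM in the others, also without overlap. The share of all listed unigenes that separate these groups without overlap was not counted. The separation is therefore not known to be particular to the receptors. For DN23029_c0_g1 the ranges overlapped, 40.0 to 129 FPKM against 52.7 to 100 FPKM. In normal fruits the 4 groups hold the stages of 12 and 17 DAF, so stage and whatever sets these groups apart cannot be told apart there. Both fruit types were among the 4 groups at 12 DAF and neither was at 27, 32 and 37 DAF. Differences at those 4 stages were thus taken between groups alike in whether any of these unigenes were above 0. At 12 DAF the groups were not alike in amount. There 104 of these unigenes were above 0 in normal and 125 in abnormal fruits, with 0.144% and 0.182% of the total FPKM.

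Measured as a share of the summed level of the 3 receptors, which does not depend on the scaling of a group, DN24477_c0_g1 made up between 64.9% and 84.8%. Its lowest shares were those at 12 DAF, with 66.5% in normal fruits and 64.9% in abnormal ones. DN23029_c0_g1 made up 22.9% and 30.4% at that stage, and its lowest shares, 8.26% and 7.95%, came at 27 DAF. DN22391_c0_g1 made up 10.6% of the sum in normal fruits and 4.65% in abnormal ones at 12 DAF, and between 6.09% and 8.97% in the other 10 groups. At 17 DAF the share of DN23029_c0_g1 was 19.3% in normal fruits against 13.5% in abnormal ones, and at 22 DAF 10.7% against 15.9%. After the exchange these became 19.3% against 15.9% and 10.7% against 13.5%. The share of DN24477_c0_g1 was 74.6% against 79.0% at 17 DAF and 82.4% against 77.6% at 22 DAF, and 74.6% against 77.6% and 82.4% against 79.0% after the exchange. At 37 DAF the shares of all 3 receptors differed by less than 0.3 percentage points between fruit types, the largest being 0.239 for DN23029_c0_g1.

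**Figure D4:**
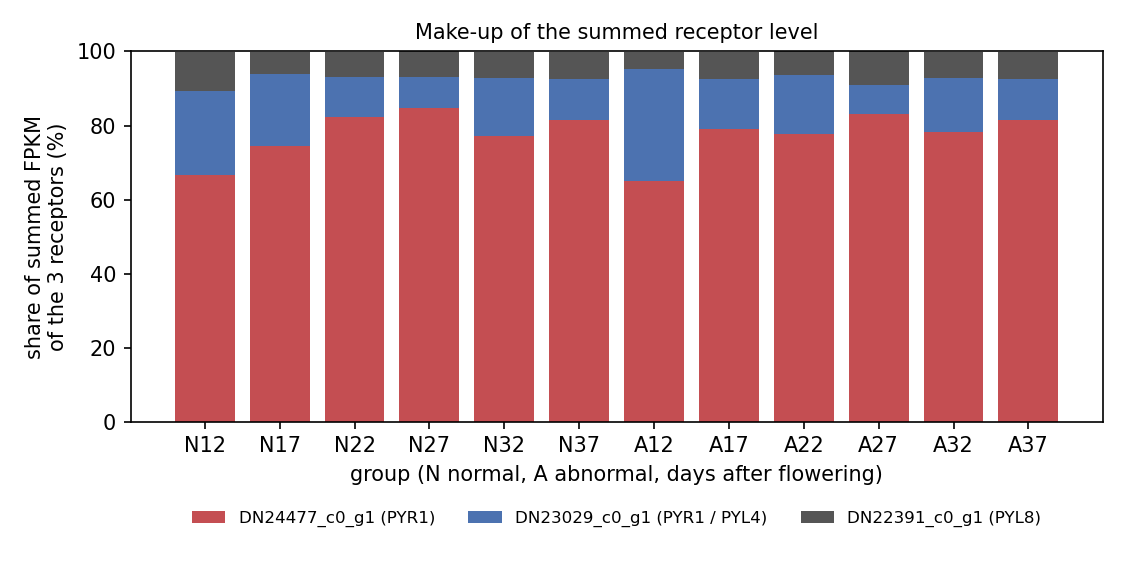
Share of each receptor in the summed FPKM of the 3 (vertical axis, percent) in the 12 groups (horizontal axis, N normal and A abnormal with days after flowering). DN23029_c0_g1 (blue) has its largest share in abnormal fruits at 12 DAF, 30.4%, and DN24477_c0_g1 (red) holds 64.9% or more in every group.

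The summed level of the 3 receptors came mostly from DN24477_c0_g1. In the order of the stages it was 175, 252, 551, 823, 630 and 508 FPKM in normal fruits. In abnormal fruits it was 424, 405, 352, 663, 511 and 679 FPKM. The log2 differences were 1.27, 0.68, −0.65, −0.31, −0.30 and 0.42, and the first of them was the one past the threshold. With the abnormal groups exchanged, the sum differed by 0.48 at 17 DAF and −0.44 at 22 DAF. Other receptors of the family, if any, are not part of this sum.

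The courses of DN24477_c0_g1 and DN22391_c0_g1 over the 12 groups had a Pearson r of 0.919, with 0.941 over the 6 normal and 0.979 over the 6 abnormal groups. DN23029_c0_g1 had an r of 0.393 with DN24477_c0_g1 and of 0.175 with DN22391_c0_g1 over the 12 groups. In normal fruits these were 0.762 and 0.734, and in abnormal fruits −0.28 and −0.45. The points are group means that share a normalization, and the values describe these groups only. Between normal and abnormal fruits over the 6 stages, r was −0.38 for DN23029_c0_g1, 0.653 for DN24477_c0_g1 and 0.654 for DN22391_c0_g1. After the exchange of the abnormal groups it was −0.39, 0.780 and 0.880.

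Of the 5891 other unigenes that averaged 1 FPKM or more, few had a course like that of DN23029_c0_g1. An r of at least 0.8 over the 12 groups was found for 15 of them, against 382 for DN24477_c0_g1 and 482 for DN22391_c0_g1. The 3 nearest to DN23029_c0_g1 were DN18299_c0_g1 (0.916), DN25923_c0_g1 (0.892) and DN26687_c0_g2 (0.871), and all 3 had their highest value in abnormal fruits at 12 DAF. They were picked for likeness to a course with its highest value in that group, so the shared high is not independent of the choice. The nearest to DN24477_c0_g1 were DN25715_c2_g1 (0.961), DN23990_c3_g5 (0.958) and DN23970_c0_g1 (0.957). The nearest to DN22391_c0_g1 were DN26459_c0_g1 (0.959), DN25690_c0_g1 (0.956) and DN28006_c5_g2 (0.953). The parts of the annotation used here do not name these unigenes.

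Beside the receptors, 11 unigenes were taken by name from the parts of the annotation used here. They were clade A phosphatases, an ABRE binding factor, AFP1, other protein phosphatases 2C and late embryogenesis abundant proteins. The last of these accumulate in maturing seeds and under water stress. Whether the other protein phosphatases 2C act downstream of the receptors was not tested, so the counts below are not a measure of abscisic acid signalling. Of the 11 unigenes, 7 are listed in the deposited values. At 12 DAF, 1 of the 7 was counted as higher and 2 as lower in abnormal fruits, beside 13.8% and 16.9% of all listed unigenes. At 17 DAF the counts were likewise 1 and 2, where 18.0% of all listed unigenes were higher and 23.5% lower. At 22 and 37 DAF 0 of the 7 were counted, beside 21.7% and 14.5% of all. At 27 and 32 DAF 1 was higher, beside 8.70% and 9.58% of all. It was protein phosphatase 2C 55 (DN15260_c0_g1), from the other protein phosphatases 2C. The median difference of the 7 over the first 3 stages was −0.29, −0.78 and 0.34, where that of all listed unigenes was 0. With the abnormal groups exchanged, 0 of the 7 were counted at 17 DAF (median −0.11), beside 19.0% of all. At 22 DAF 2 were then counted (median 0), beside 38.4% of all, with late embryogenesis abundant protein D-34 (DN16006_c0_g1) at 1.72 and D-29 (DN16562_c0_g1) at −1.58.

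Apart from one, these unigenes had at most 2.29 FPKM in any group. Protein phosphatase 2C 37 (DN1348_c0_g1), the PP2CA co-receptor in Arabidopsis, had 1.14 and 1.04 FPKM in normal fruits at 12 and 17 DAF and 1.31 and 0.287 FPKM in the abnormal groups of 12 and 22 DAF, and was listed at 0 in the other 8 groups. AFP1 (DN12706_c0_g1), which binds the transcription factor ABI5 in Arabidopsis, stood at 1.97 FPKM in normal fruits against 0.174 FPKM in abnormal ones at 12 DAF and was listed at 0 in the same 8 groups. Protein phosphatase 2C 9 (DN13016_c0_g2) was above 0 only in abnormal fruits at 12 DAF, with 1.62 FPKM. For these 3 the closest protein is one of Arabidopsis thaliana, and they share the pattern of the 146 unigenes described above, so whether they are almond transcripts was not tested. The counts and medians of the 7 unigenes above include them. At 12 DAF the unigene counted as higher was protein phosphatase 2C 9, also from the other protein phosphatases 2C, and AFP1 was among those lower. At 17 DAF protein phosphatase 2C 37 was among those lower. As labelled, the medians at 17 and 22 DAF are the values of AFP1 itself. The co-receptor ABI1 and the factor ABF3 were not analysed here.

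Late embryogenesis abundant protein D-29 (DN16562_c0_g1), whose closest protein is one of peach, had the highest levels of the 7. In the order of the stages it had 5.77, 17.0, 27.6, 32.2, 5.52 and 17.9 FPKM in normal fruits. In abnormal fruits it had 3.56, 8.58, 15.7, 37.5, 10 and 31.5 FPKM. Like DN22391_c0_g1, it was highest at 27 DAF in both fruit types. At 12 DAF its difference between fruit types was −0.57, of the opposite sign to those of the 3 receptors.

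Of 4 unigenes responding to other hormones, 0 were counted at 12 DAF, beside 30.6% of all. IAA13 (DN26918_c0_g1 and DN26918_c0_g2), a repressor of auxin responses, stood at −0.52 and −0.41, auxin-induced protein 15A (DN18673_c0_g1) at −0.03 and the gibberellin-regulated protein 11-like unigene (DN26787_c1_g1) at −0.11. At 17 DAF both IAA13 unigenes were counted as lower (−2.0 and −5.44), beside 23.5% of all. Once these groups were exchanged they stood at −0.65 and −0.77 at 17 DAF and at −1.73 and −5.33 at 22 DAF. At 22 DAF 26.4% of all were then counted as lower. The gibberellin-regulated unigene was counted as lower at 32 DAF (−1.04) and at 37 DAF (−1.76), where 6.32% and 7.76% of all were lower. After the exchange it was counted as higher at 17 DAF (1.12), where 951 of the 8676 listed unigenes were counted as higher. The differences between these values and those of the receptors were not tested.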

How the data were processed

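Fruits were profiled by RNA-seq. According to the methods and the labels, the authors filtered the reads, assembled unigenes with Trinity, aligned the reads to them with Bowtie2, estimated counts with RSEM and normalized them with DESeq2. The authors deposited FPKM, computed from effective length and library size, as 1 mean per group. Groups were taken from the sample titles. Unigene names come from the paper and its annotation, of which a part was used.

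Differences were taken on log2(FPKM + 1) and counted when larger than 1 in size, with no test, since 1 mean per group allows none. Every listed unigene has a group that lies 1.00 or more from the normal fruits of 12 DAF (DN23029_c0_g1 by up to 1.67, DN24477_c0_g1 by 2.58 and DN22391_c0_g1 by 1.63), so percentages cover a selected list. Named beside the receptors are the list of 11 unigenes described above, 4 unigenes responding to other hormones and, for each receptor, the 3 unigenes of highest Pearson r. Members and lists were chosen with earlier results of these data known. Alternatives were pseudocounts of 0.1 and 5, median-of-ratios scaling, scaling to a common total, a threshold of 2, a filter at 5 FPKM and Spearman's rho. The exchange of 2 abnormal groups and the background at 10 FPKM were chosen after seeing the data. The counting was tested on simulated data. Python 3.11.15, numpy 2.4.6, pandas 2.3.3 and matplotlib 3.10.9 were used.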

Additional observations from a re-analysis of the deposited data

How the results depend on the processing

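Of the 18 differences between fruit types, 17 kept their sign over the pseudocounts, scalings and filter. The exception was DN23029_c0_g1 at 22 DAF, from −0.07 to 0.21. With a threshold of 2, the number of receptors counted was 0 at 12 DAF, and 0 in normal fruits from 17 to 22 DAF and in abnormal fruits from 12 to 17 and from 22 to 27 DAF, and the summed level at 12 DAF (1.27) was not counted either. Median-of-ratios scaling gave 1 receptor at 17 DAF (DN22391_c0_g1, 1.11), 0 in normal fruits from 17 to 22 DAF, 1 in normal fruits from 32 to 37 DAF and 0 in abnormal fruits from 22 to 27 DAF. For this last step, a pseudocount of 5 and scaling to the same total gave 1 each, and the exchange of the abnormal groups gave 0. The cause was not tested. The filter at 5 FPKM left every count as it was. Apart from the exchange, the share of all listed unigenes counted under these alternatives was not computed, so these counts have no background beside them. No paired analysis was possible because the files hold 1 mean per group, and for the same reason no replicate could be left out. Without read counts, the depth behind a value is unknown and no detection limit can be given.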
